A study of Rattus norvegicus with 12 samples.

Results

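Forskolin, a plant diterpene that activates adenylate cyclase directly, was given to rat XEN cells at 10 µM for 1 day, and 3 Forskolin arrays were set against 3 Control arrays, 6 of the 12 arrays of the series. XEN cells are stem cells of the extraembryonic endoderm, here a single cell line of the Fisher rat strain, so no spread between animals is measured. All cells were plated on the first day and moved on the last day into medium with 0.1% serum, after 10% serum before. Forskolin cells received forskolin on that last day and nothing else, and Control cells received no compound. CHIR_Forskolin cells had the same forskolin treatment on top of 2 days of 3 µM CHIR99021 (CHIR), which blocks the kinase GSK3 and so keeps beta-catenin from being degraded, and CHIR cells had the 2 days of CHIR alone. The last pair of groups shares no array with the first and is used below to see which changes recurred. All 12 arrays entered 1 fit, so the CHIR arrays also shape the spread behind each p-value of the first comparison. The series asks how adenylate cyclase, the enzyme downstream of the receptor for parathyroid hormone-related protein, bears on the choice between parietal and visceral endoderm.

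Adenylate cyclase makes cyclic AMP (cAMP), which binds the regulatory subunits of protein kinase A and frees its catalytic subunits. The kinase phosphorylates the transcription factor CREB, which sits on cAMP response elements near many early genes, and phosphodiesterases break cAMP down again. In many cell types the kinase also loosens actin stress fibres, on which the coactivators of SRF and the YAP and TAZ proteins depend. In the early rodent embryo, parietal endoderm cells migrate singly and lay down a thick basement membrane, while visceral endoderm is an absorbing epithelium, and cAMP has long been used to push cultured endoderm towards the parietal side.

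The arrays gave log2 signals for 16633 genes, each the median of its probe sets. Array medians lay between 7.76 and 7.86, arrays of the same group correlated at 0.995 to 0.997, and a Forskolin and a Control array at 0.987 to 0.989. Over the 6 arrays the first principal component, with 63.9% of the variance, separated the groups, and the second, with 12.6%, spread the Control arrays. Olfactory receptor genes, which these cells should not use, set a level for background of 6.42 (their 95th percentile), and 10130 genes lay above it in either group. Known markers of extraembryonic endoderm averaged 12.2 to 12.3 on every array of both groups, 13 of 13 above background. Markers of trophoblast, pluripotent cells, mesoderm with definitive endoderm, fibroblasts, and endothelium with blood averaged between 5.64 and 6.88 per array, with 2 to 4 members of each list above background. Fibroblast markers averaged 5.79 to 5.86 on Forskolin arrays, against 5.64 to 5.77 on Control arrays, and trophoblast markers 6.13 to 6.15 on Forskolin arrays, against 5.98 to 6.11 on Control arrays. Endothelium and blood markers averaged 6.69 to 6.74 on Forskolin arrays, against 6.81 to 6.88 on Control arrays. The part of these 3 lists, whose groups did not overlap, in the results was not tested. Since these are bulk samples, fewer cells of a type and less RNA per cell cannot be told apart. The labels call the 3 samples of a group parallels and name no separate cultures, and the spread behind each p-value may therefore be technical.

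Of the 16633 genes, 2492 (15%) differed between Forskolin and Control arrays in limma at a Benjamini-Hochberg adjusted p under 0.05, 1009 higher (6.07%) and 1483 lower (8.92%). Among the 10130 genes above background, 2306 were called (22.8%), 894 higher (8.83%) and 1412 lower (13.9%). By at least 1 log2 unit 296 genes changed (1.78%), of which 159 rose (0.956%) and 137 fell (0.824%). The arrays of both groups did not overlap for 5117 genes (30.8%), 2259 higher (13.6%) and 2858 lower (17.2%) in Forskolin cells. The median difference over all genes was -0.0036, and -0.044 over those above background. Calls that were higher made up 40.5% of all calls, but 50.7% once each array was centred on its own median (1202 higher and 1167 lower), so the balance of small rises and falls is not settled by these arrays. The olfactory receptor genes had a median difference of 0.044, with 8 of 1102 called higher and none lower in limma, against 45 and 3 at an unadjusted p under 0.05. Among named genes below, Control means lay under 6.42 for several of the largest rises (Trpm2, Ttll9, Htr1b, Trh, Jade1, Fa2h and Rasgrp3) and the Forskolin mean for Gpc4, and such differences can be understated.

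**Figure D1:**
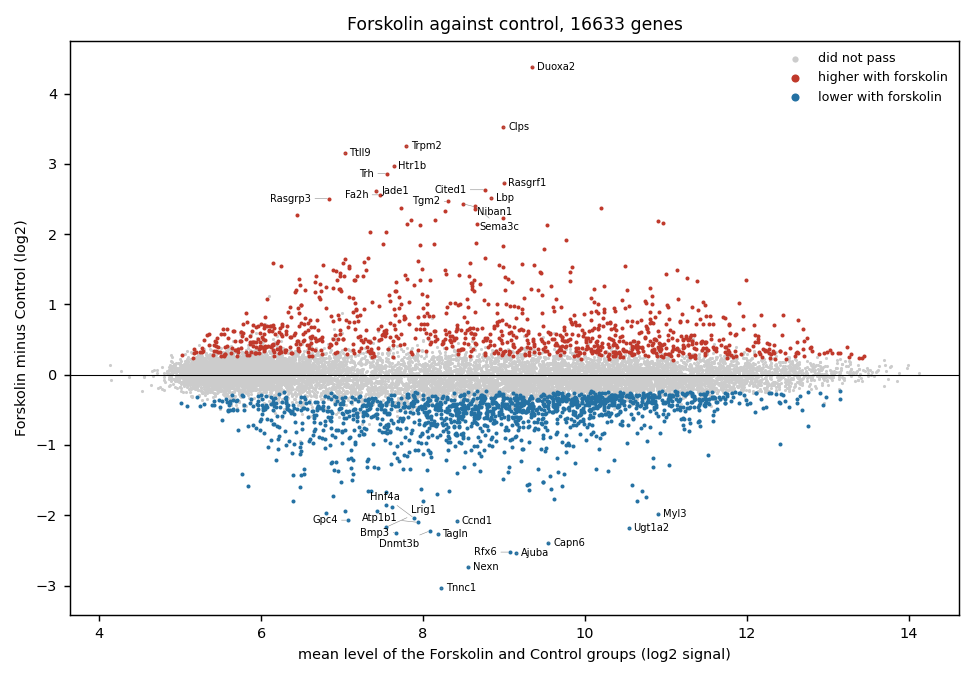
Difference between Forskolin and Control (log2, vertical) against the mean level of both groups (log2 signal, horizontal) for 16633 genes, with 1009 genes called higher in red, 1483 called lower in blue and the others in grey. The 15 largest rises and the 15 largest falls under the naming rule are labelled, from Duoxa2 at 4.38 to Tnnc1 at -3.04.

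Duoxa2, which encodes the maturation factor of the hydrogen peroxide-making enzyme Duox2, had the largest rise. Its log2 values were 11.58, 11.48 and 11.55 on Forskolin arrays, against 7.38, 6.99 and 7.11 on Control arrays, a 20.9-fold difference (log2 difference 4.38, SE 0.107, limma adjusted p = 2.34e-11). The groups lay far apart, and all 6 probe sets of the gene were called higher. Clps, the colipase of pancreatic lipase, followed with 10.79, 10.73 and 10.74 in Forskolin cells, against 7.40, 7.00 and 7.30 in Control cells (11.5-fold). Trpm2, a calcium-permeable cation channel, had 9.54, 9.40 and 9.32 in Forskolin cells, against 6.18, 6.12 and 6.21 in Control cells (9.52-fold). Every Forskolin array lay above every Control array for each of these genes, although the brightest probe set of Trpm2 moved by only 0.30 and was not called. The rest of the 15 largest rises, at 2.40 to 3.15 log2 units, were Ttll9, a tubulin ligase-like gene, the serotonin receptor Htr1b, the thyrotropin-releasing hormone Trh, Rasgrf1, Cited1, Jade1, the fatty acid hydroxylase Fa2h, the lipopolysaccharide-binding protein Lbp, Rasgrp3, the transglutaminase Tgm2, Niban1 and the guidance factor Sema3c.

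The largest fall was that of Tnnc1, the calcium-binding troponin of slow and cardiac muscle, with 6.86, 6.76 and 6.48 in Forskolin cells, against 9.78, 9.73 and 9.71 in Control cells (log2 difference -3.04, SE 0.127, limma adjusted p = 2.51e-09). Nexn, an actin-binding protein, had 7.14, 7.23 and 7.19 in Forskolin cells, against 9.73, 10.06 and 9.99 in Control cells (-2.73). Ajuba, a LIM protein of cell junctions that restrains the Hippo kinases, had 7.86, 7.97 and 7.81 in Forskolin cells, against 10.47, 10.26 and 10.54 in Control cells (-2.54). The groups did not overlap for any of these 3 genes, and each probe set of Tnnc1 and Ajuba was called lower. The other large falls, between -2.52 and -1.98, were Rfx6, Capn6, Tagln, Bmp3, Dnmt3b, Ugt1a2, Lrig1, Atp1b1, Ccnd1, Gpc4, Hnf4a and Myl3. They hold contractile genes (Tagln, Myl3), the endoderm transcription factors Rfx6 and Hnf4a, the DNA methyltransferase Dnmt3b, the cell cycle driver Ccnd1 and the sodium pump subunit Atp1b1.

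No gene of the machinery that makes cAMP passed the test, but only 5 of the 15 measured adenylate cyclase and G protein genes lay above background. None of the 15 was called in limma, against 2 at an unadjusted p under 0.05, and the list's median difference was 0.070. Without Control replicate 3, or by brightest probe sets, 1 member was called higher. Between CHIR_Forskolin and CHIR arrays 3 of the 15 rose and 2 fell. Adcy6 had 9.82, 9.82 and 9.62 in Forskolin cells, against 9.50, 9.66 and 9.58 in Control cells (difference 0.17, limma adjusted p = 0.343). The parathyroid hormone receptor gene Pth1r had 12.18, 12.24 and 12.29 in Forskolin cells, against 12.28, 12.17 and 12.20 in Control cells (difference 0.017, limma adjusted p = 0.932). Both sets of values overlapped, and the ligand gene Pthlh did not pass either (limma adjusted p = 0.959). Adcy7 and the stimulatory G protein gene Gnas lay near background under their symbols. Of the effectors, 1 of 20 rose, the kinase anchor Akap11 (0.64), and 3 fell. Those were the anchor Akap12 (-0.87), the kinase inhibitor Pkig (-0.66) and the regulatory subunit Prkar1b (-0.50). None of these 4 calls held for the brightest probe set of the gene.

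Enzymes that degrade cAMP rose in part. Of 16 measured phosphodiesterase genes, 6 rose and the others did not pass, with a median of 0.075 over the whole list. Pde10a, which hydrolyses both cAMP and cGMP, had 9.21, 9.08 and 8.80 in Forskolin cells, against 6.63, 7.00 and 7.06 in Control cells (2.14, SE 0.128, limma adjusted p = 8.08e-08). Pde7b, specific for cAMP, had 6.61, 6.67 and 7.04 in Forskolin cells, against 5.95, 5.85 and 5.87 in Control cells (0.89). The groups were apart for both genes, with Control values of Pde7b at background. Pde4d, a cAMP phosphodiesterase with many isoforms, was bright in both groups and rose by 0.31. Pde3a rose by 0.49 and Pde2a, below the background level, by 0.59, while Pde4b differed by 0.16 (limma adjusted p = 0.584). The calls of Pde2a, Pde3a and Pde4d did not hold in every leave-one-out fit, and the call of Pde10a was lost with its brightest probe set (0.33). The list had 4 rises in place of 6 without Control replicate 3 and without each Forskolin replicate in turn.

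CREB's own factors and their feedback kinases were led by 2 genes. Of 12 measured members, Sik1 and Crem rose, Sik2 fell and 9 did not pass. Sik1, a kinase that keeps the CREB coactivators out of the nucleus, had 9.84, 9.82 and 9.82 in Forskolin cells, against 7.47, 7.70 and 7.23 in Control cells (5.15-fold, SE 0.111 in log2, limma adjusted p = 7.44e-09). Crem, whose short product ICER represses cAMP-driven transcription, had 10.19, 10.03 and 10.33 in Forskolin cells, against 8.69, 8.90 and 8.61 in Control cells (2.73-fold, SE 0.118 in log2, limma adjusted p = 1.25e-06). Neither pair of groups overlapped. The call of each gene was lost with its brightest probe set (0.15 for Sik1 and 0.21 for Crem), although 13 of 16 probe sets of Sik1 and 7 of 15 of Crem were called higher. Sik2 fell by 0.49, though not past the threshold without Control replicate 2 (-0.45), without Forskolin replicate 3 (-0.43) or with its brightest probe set (-0.30).

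The probe sets of Crem divided by position in their numbering. The 7 with the lowest numbers differed by -0.26 to 0.29, none of them called, whereas the 8 with the highest numbers differed by 1.43 to 2.39, and 7 of those were called higher. Crem is known to have an internal promoter that cAMP induces and that gives rise to ICER from the last exons. Probe set numbers are not genome positions, so which exons the numbers stand for was not tested. Pde10a showed such a divide too. Of its probe sets above background, the 24 with the lowest numbers rose by 1.07 to 3.26, all called, while the last 4 differed by -0.14 to 0.39 and none was called. Adamts9, a matrix protease, was called higher as a gene (0.31), but its first 11 probe sets differed by -2.39 to -0.41, with 10 called lower, against -0.28 to 0.58 for the other 41 above background, with 5 called higher. Its gene value reversed to -0.06 with the mean of probe sets, and the call was lost without Control replicate 1 (0.24), Control replicate 3 (0.31), Forskolin replicate 2 (0.30) or Forskolin replicate 3 (0.27). Myof, a membrane repair gene, also went both ways, with its first 25 probe sets all positive and 11 called higher, and 29 of the other 31 negative and 6 called lower. All 4 genes were picked after their values were seen. Crem, Pde10a and Adamts9 are among 13 of 5964 scanned genes whose probe sets fell into runs with medians at least 1 log2 unit apart, and Myof is not. For all genes together, 13730 of 211195 probe sets were called (6.5%), 2.99% higher and 3.51% lower. Of the 36610 probe sets with no gene name, 1403 were called (3.83%), 2.05% higher and 1.79% lower.

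**Figure D2:**
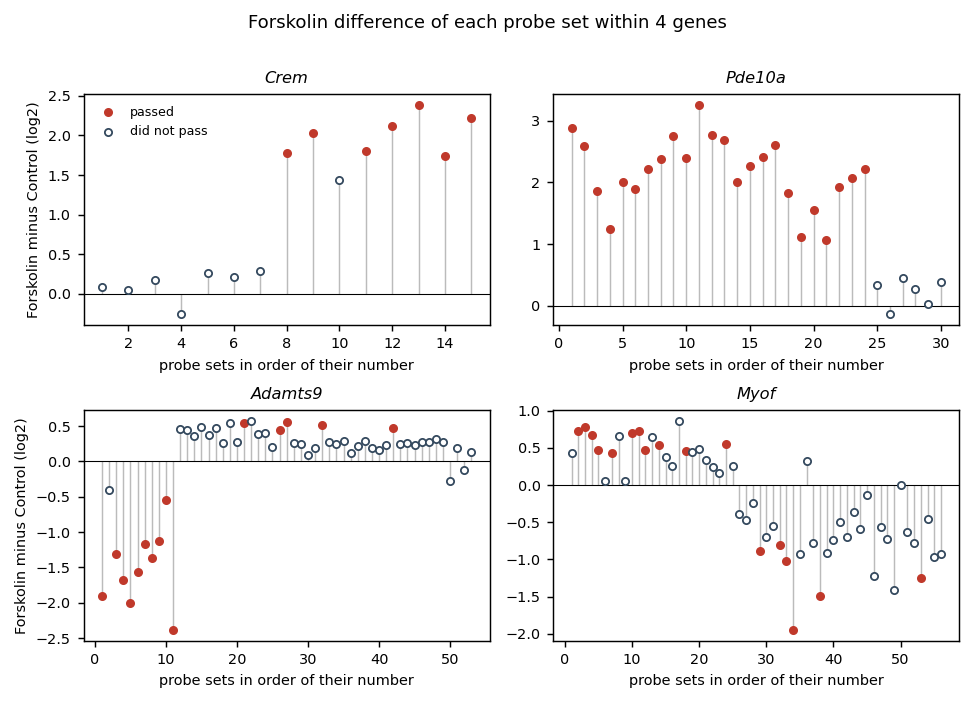
Difference between Forskolin and Control (log2, vertical) of each probe set of Crem, Pde10a, Adamts9 and Myof, in the order of the probe set numbers (horizontal). Filled points passed the test over all probe sets and open points did not. In Crem the change starts at the eighth probe set, and in Adamts9 and Myof the sign differs between the first run and the rest.

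CREB early targets are genes that cAMP induces in many cells. Of 29 measured members, 9 rose, 3 fell and 17 did not pass, and the list's median was 0.079. Nr4a2 had 10.78, 10.77 and 10.63 in Forskolin cells, against 8.85, 8.78 and 8.81 in Control cells (3.77-fold, limma adjusted p = 1.18e-07). Nr4a3 had 9.94, 9.81 and 9.96 in Forskolin cells, against 7.95, 8.07 and 8.22 in Control cells (3.55-fold). These orphan nuclear receptors were called on each of their 12 and 11 probe sets. Their relative Nr4a1 went the other way, with 7.86, 8.12 and 7.92 in Forskolin cells, against 9.14, 8.64 and 9.02 in Control cells (-0.96, SE 0.129, limma adjusted p = 0.000142). Nfil3 (1.00), the insulin receptor substrate Irs2 (0.60) and Fos (0.38) rose, and Gem (-1.25) and Pmaip1 (-1.18) fell. Probe sets called on their own numbered 1 of 3 for Nfil3, 1 of 2 for Irs2 and 0 of 4 for Fos, and all for Gem and Pmaip1. Without Control replicate 2 the list had 6 rises in place of 9, and with the mean of probe sets 14.

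**Figure D3:**
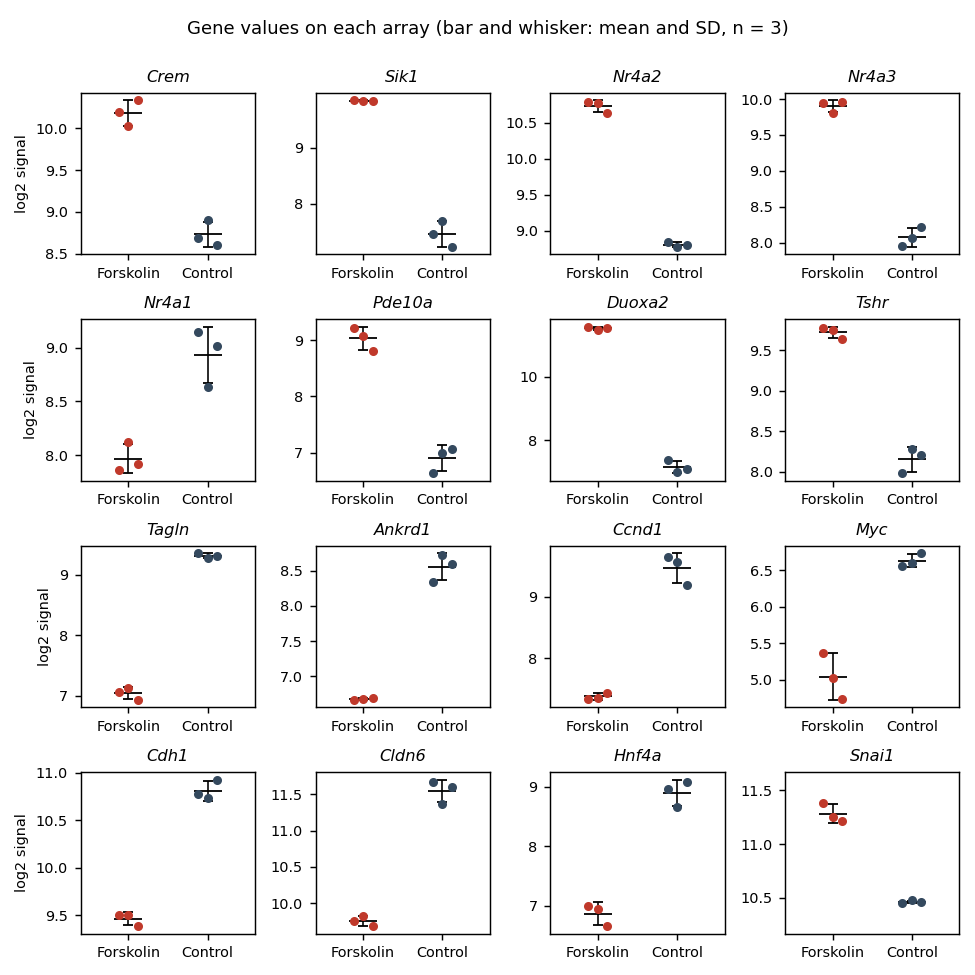
Log2 signal (vertical) of 16 genes on the 3 Forskolin arrays (red, left) and the 3 Control arrays (dark, right), with the mean as a bar and the SD as a whisker; each panel has its own scale. The groups are apart in every panel, with Crem, Sik1, Nr4a2, Nr4a3, Pde10a, Duoxa2, Tshr and Snai1 higher and the other 8 genes lower in Forskolin cells.

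Promoter sequence was searched here because the list was made of CREB targets. The letters TGACG, the core of the cAMP response element, were searched on both strands in the 250 bases before the start of 13027 tested genes, in RefSeq sequence of build GRCr8. They occur in 15 of the 21 promoters of CREB early targets found there (71.4%), against 23.3% of all tested genes, and the whole element TGACGTCA, which holds the core on both strands, in 5 of 21 (23.8%), against 2.28%. Among the promoters of genes called higher, 24.1% hold TGACG, and 26.1% among those called lower. Both shares lie under that of all tested genes above background (29.45%), where most called genes lie. Of the 115 promoters of genes higher by at least 1 log2 unit, 15.7% hold the core and none the whole element. The stretches below carry the matches in Sik1, Nr4a2, Trh, Snai1 and Nr4a1, the last of which fell and has 4 matches. Nr4a2 and Nr4a1 belong to the list, whereas Sik1, Trh and Snai1, which rose, do not and were picked for display. Capitals mark TGACG or its complement CGTCA, and each stretch runs 5′ to 3′ in the direction of the gene.
Sik1 (chr20:9958792-9958867, minus strand): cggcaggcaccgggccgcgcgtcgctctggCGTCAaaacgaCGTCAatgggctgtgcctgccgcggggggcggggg
Nr4a2 (chr3:62104888-62104925, minus strand): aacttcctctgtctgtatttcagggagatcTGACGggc
Trh (chr4:126301802-126301866, minus strand): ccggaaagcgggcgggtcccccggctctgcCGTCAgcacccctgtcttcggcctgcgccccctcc
Snai1 (chr3:176667338-176667402, plus strand): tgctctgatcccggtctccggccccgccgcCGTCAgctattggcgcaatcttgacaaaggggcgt
Nr4a1 (chr7:134259888-134260119, plus strand): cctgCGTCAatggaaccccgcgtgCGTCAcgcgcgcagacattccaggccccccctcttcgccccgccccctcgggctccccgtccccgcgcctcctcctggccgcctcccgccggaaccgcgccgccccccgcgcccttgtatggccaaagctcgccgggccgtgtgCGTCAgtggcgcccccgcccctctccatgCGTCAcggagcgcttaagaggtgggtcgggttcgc

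Receptors and hormones that act through G proteins included several of the strongest rises. Of 37 measured receptor genes, 7 rose and 1 fell, with a list median of 0.047, and 14 of the 37 lay above background. Htr1b, a serotonin receptor that inhibits adenylate cyclase, had 9.12, 9.20 and 9.03 in Forskolin cells, against 6.43, 6.00 and 6.02 in Control cells (7.83-fold). The secretin receptor Sctr rose by 1.54 and the adenosine receptor Adora2a by 1.47, both receptors that stimulate the cyclase, with Control levels at background. Of 36 hormone and neuropeptide genes, 5 rose and 2 fell. Trh had 9.05, 8.96 and 8.96 in Forskolin cells, against 6.31, 6.18 and 5.91 in Control cells (7.27-fold), and Inha, the inhibin alpha chain, rose by 1.01 and the stanniocalcin Stc1 by 0.79. Cholecystokinin (Cck) rose by 1.48, but by 0.41 and not called with its brightest probe set. The natriuretic peptide Nppb fell by 1.53 and Inhba, the activin beta chain, fell by 0.94.

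Genes that thyrotropin controls through cAMP in the thyroid also rose in part. Of 14 measured, 5 rose, 1 fell and 8 did not pass. Tshr, the thyrotropin receptor, had 9.77, 9.75 and 9.64 in Forskolin cells, against 7.98, 8.28 and 8.21 in Control cells (2.96-fold, limma adjusted p = 1.44e-06). Duox2 rose by 1.40 and Duoxa1 by 0.66, beside Duoxa2, its maturation factor, and its relative Duox1 was the fifth that rose. The iodide transporter Slc5a5 fell by 0.65, the opposite direction. The calls of Duox2 and Slc5a5 were lost with their brightest probe sets. Of 13 steroid-making genes that cAMP controls in the adrenal and gonad, only Cyp11a1, the side-chain cleavage enzyme, rose (1.27, limma adjusted p = 0.00415), and Scarb1 fell by 0.37, a call that was lost in 4 of 6 leave-one-out fits, with centred arrays (-0.33) and with its brightest probe set (-0.19).

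Among exchange factors for RAS and RAP and regulators of G proteins, 2 of 25 rose and 2 fell. Each is 8% of the list, against 6.07% of all genes higher and 8.92% lower. Rasgrf1, a RAS exchange factor, had 10.26, 10.47 and 10.35 in Forskolin cells, against 7.61, 7.52 and 7.76 in Control cells (2.73). Rasgrp3, which acts on RAS and RAP, rose by 2.51. Of 18 measured transcripts that the ERK pathway induces or that feed back on it, 8 fell, 1 rose and 9 did not pass, with a list median of -0.32. Dusp4, a phosphatase of ERK, had 6.56, 6.82 and 6.74 in Forskolin cells, against 8.48, 8.32 and 8.32 in Control cells (-1.67). The ERK pathway inhibitor Spry4 fell by 0.97, while the phosphatase Dusp5 rose by 0.59.

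Of 37 measured actin, contractile and SRF target genes, 18 fell, 2 rose and 17 did not pass, and the median difference was -0.30. Tagln, the smooth muscle protein transgelin, had 7.07, 7.14 and 6.93 in Forskolin cells, against 9.36, 9.28 and 9.31 in Control cells (-2.27, SE 0.0875, limma adjusted p = 1.4e-09). Fhl1, a LIM protein of muscle, had 6.62, 6.70 and 6.54 in Forskolin cells, against 8.42, 8.52 and 8.47 in Control cells (-1.85). Fhl1 lost its call with its brightest probe set (-0.19), though 6 of its 9 probe sets were called lower. Tpm2, a tropomyosin, went against the group with 8.60, 8.36 and 8.13 in Forskolin cells, against 6.23, 6.37 and 6.41 in Control cells (2.03), and Actn1, an actin crosslinker, rose by 0.33. The falls numbered 18 or 19 with an array left out and 15 with brightest probe sets.

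Of 22 measured target genes of YAP and TAZ, which act through TEAD factors, 11 fell, 1 rose and 10 did not pass, with a median of -0.31. With an array left out 9 or 10 fell, and with brightest probe sets 8 fell and 3 rose (median -0.17). Myof, whose probe sets went both ways, is counted among the 11 falls. Ankrd1, a muscle ankyrin repeat protein much used as a YAP reporter, had 6.66, 6.68 and 6.69 in Forskolin cells, against 8.35, 8.73 and 8.59 in Control cells (-1.88). The matrix-associated factors Ccn2 and Ccn1 had differences of -1.41 and -1.18, and Ccn2 had 9.08, 9.01 and 9.01 in Forskolin cells, against 10.50, 10.43 and 10.40 in Control cells. Amotl2, an angiomotin that holds YAP in the cytoplasm, differed by -1.44, so a target that restrains YAP fell beside those read as its output. Ajuba, which restrains the Hippo kinases, is among the falls of this list too. The receptor kinase Axl rose by 1.49.

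The TEAD letters GGAATG, searched the same way on both strands, occur in 7 of the 15 YAP target promoters found (46.7%) and in 9 of the 25 actin gene promoters (36%), against 10.5% of all tested genes. The CArG box, to which SRF binds, occurs in 4 of the 25 actin gene promoters (16%), against 1.21%. Both lists were made from known targets of these factors, so the matches describe the lists and say nothing of why members fell. The stretches of Ccn2, Ccn1, Amotl2 and Ajuba, which fell, have GGAATG or its complement CATTCC in capitals. Acta1, the skeletal actin gene, lies outside the naming rule and was added after its difference of -1.75 was seen, and in its stretch the CArG box alone is in capitals, although CATTCC occurs there too.
Ccn2 (chr1:22624671-22624810, minus strand): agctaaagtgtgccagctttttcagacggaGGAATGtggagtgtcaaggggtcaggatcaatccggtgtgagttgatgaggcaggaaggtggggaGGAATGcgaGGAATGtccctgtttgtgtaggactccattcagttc
Ccn1 (chr2:237225767-237225832, minus strand): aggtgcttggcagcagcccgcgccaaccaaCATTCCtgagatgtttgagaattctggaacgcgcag
Amotl2 (chr8:112182520-112182585, plus strand): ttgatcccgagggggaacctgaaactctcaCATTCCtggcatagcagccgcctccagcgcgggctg
Ajuba (chr15:32000243-32000292, minus strand): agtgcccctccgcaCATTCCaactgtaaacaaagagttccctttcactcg
Acta1 (chr19:68784249-68784318, minus strand): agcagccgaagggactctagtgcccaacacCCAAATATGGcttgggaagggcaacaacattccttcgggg

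Some junction genes of epithelia fell in Forskolin cells. Cdh1, which encodes E-cadherin, had 9.50, 9.51 and 9.38 in Forskolin cells, against 10.78, 10.73 and 10.93 in Control cells (-1.35, SE 0.093, limma adjusted p = 3.14e-07). With it the membrane protease St14 (-1.37), the adhesion protein Epcam (-0.72) and plakoglobin, Jup (-0.57), fell, 4 of 23 measured adherens and surface genes (8 with the mean of probe sets), while Perp, a desmosome-associated gene, rose by 0.72. The 4 falls are 17.4% of the adherens and surface list, against 8.92% of all genes and 13.9% of those above background. Tight junction and polarity genes had 12 falls (42.9%) and 1 rise among 28 measured, and the other 15 did not pass. Cldn6, a claudin of early epithelia, had 9.76, 9.82 and 9.68 in Forskolin cells, against 11.67, 11.37 and 11.59 in Control cells (-1.79). Ocln, occludin, had 8.89, 8.84 and 8.45 in Forskolin cells, against 10.15, 10.29 and 10.30 in Control cells (-1.52). Marveld2, tricellulin, fell by 1.10, and the claudin Cldn10 was the one that rose (1.59, with Control at background).

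Factors that control the epithelial state split. Of 17 measured, 5 rose and 2 fell. Snai1, a repressor of E-cadherin and a known marker of parietal endoderm, had 11.38, 11.25 and 11.21 in Forskolin cells, against 10.46, 10.48 and 10.46 in Control cells (0.82, limma adjusted p = 6.54e-06). The factors Klf4 (0.96), Grhl3 (0.74) and Elf3 (0.50), which are known from epithelia, rose too, while the epithelial splicing regulator Esrp2 fell by 0.60 and the repressor Ovol2 by 0.43. Of 20 intermediate filament genes 5 fell and the others did not pass, and those 5 were the keratins Krt8 and Krt18, nestin (Nes) and the lamins Lmnb1 and Lmnb2. With brightest probe sets the falls numbered 2. Krt8 had 10.98, 10.87 and 11.00 in Forskolin cells, against 12.07, 12.14 and 12.07 in Control cells (-1.14), and its partner Krt18 fell by 1.32. Vim, the vimentin of migratory cells, had 12.79, 12.77 and 12.73 in Forskolin cells, against 13.30, 13.07 and 13.11 in Control cells. Its difference of -0.40 did not pass with the spread of all 12 arrays (limma adjusted p = 0.282) but did in the fit of these 6 arrays alone.

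The E-box letters CACCTG, which Snail proteins bind, occur in 8 of the 21 tight junction promoters found (38.1%), against 15.6% of all tested genes, 15.9% of those called higher and 15.1% of those called lower. Among genes named above, Grhl3, Elf3 and Perp hold the letters and rose, and Marveld2 fell without them. Whether a match bears on a fall was not tested. Cldn6 and Ocln, both lower, were picked for display, and their matches are in capitals (CACCTG or its complement CAGGTG).
Cldn6 (chr10:13215581-13215807, plus strand): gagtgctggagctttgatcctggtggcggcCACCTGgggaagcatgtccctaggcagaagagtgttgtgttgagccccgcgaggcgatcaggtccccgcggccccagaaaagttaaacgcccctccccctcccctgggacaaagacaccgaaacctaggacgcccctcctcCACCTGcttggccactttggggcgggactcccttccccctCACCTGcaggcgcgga
Ocln (chr2:33441231-33441365, minus strand): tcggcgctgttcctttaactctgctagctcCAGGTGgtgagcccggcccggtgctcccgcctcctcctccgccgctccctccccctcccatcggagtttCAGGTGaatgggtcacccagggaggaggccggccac

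Of 32 measured visceral endoderm genes, 11 fell, 1 rose and 20 did not pass, with a median of -0.14. Cdh1, Cldn6, Bmp2 and Epcam, named elsewhere, are 4 of those falls. Hnf4a, a nuclear receptor that controls the visceral endoderm programme, had 7.00, 6.95 and 6.65 in Forskolin cells, against 8.97, 8.66 and 9.08 in Control cells (-2.04, SE 0.138, limma adjusted p = 2.59e-07). The transcription factor gene Rfx6 had 7.87, 8.02 and 7.55 in Forskolin cells, against 10.37, 10.21 and 10.43 in Control cells (-2.52). The uptake receptor partners Amn and Cubn fell by 1.39 and 1.29. Afp and Ttr, secreted products of mature visceral endoderm, were at or near background (differences -0.14 and 0.13, not passed), and Foxa2 differed by -0.33 (limma adjusted p = 0.123). The falls numbered 11 with each of the 6 arrays left out in turn and 9 with brightest probe sets. Of 12 anterior visceral endoderm genes 3 fell, among them the Wnt inhibitor Dkk1 (-1.38) and the homeobox gene Lhx1 (-0.79, at background).

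Parietal endoderm genes were bright in both groups, with 21 of 22 above background. Of the 22, 2 rose (Cited1 and Snai1) and 1, the basement membrane gene Nid2 (-0.48), fell, and the median was 0.060. Mean probe set values gave 5 rises in place of 2, and centred arrays 4. The plasminogen activator Plat had 11.25, 11.36 and 11.35 in Forskolin cells, against 11.21, 11.08 and 11.14 in Control cells (0.18, limma adjusted p = 0.36). Thrombomodulin, Thbd, differed by 0.071, the laminin Lama1 by 0.055 and Sparc by 0.12, none of which passed. Collagen IV, Col4a1, had 12.38, 12.44 and 12.43 in Forskolin cells, against 11.98, 12.26 and 12.21 in Control cells (0.27, limma adjusted p = 0.0541), just outside the threshold, and passed under 6 of 15 alternatives. Of 13 core factors of the extraembryonic endoderm, 3 rose and 1 fell. Sox7 had 11.73, 11.77 and 11.72 in Forskolin cells, against 10.96, 11.00 and 11.09 in Control cells (0.73), and Cited1, a transcriptional coregulator, had 10.09, 10.19 and 9.97 in Forskolin cells, against 7.73, 7.20 and 7.43 in Control cells (2.63). Foxq1 fell by 1.96 to background, whereas the endoderm factors Gata4 (0.079), Gata6 (0.19) and Sox17 (-0.0067) stayed under the threshold here, and Gata6 passed under 3 of 15 alternatives.

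Matrix and adhesion genes moved in both directions. Of 34 basement membrane and matrix genes, 8 rose and 5 fell, led by the collagen Col6a3 (1.35), fibulin-1, Fbln1 (0.79), biglycan, Bgn (0.73) and fibronectin, Fn1 (0.71), against the laminin chains Lama4 (-1.41) and Lamb3 (-0.85). The 5 falls became 2 without Control replicate 2 or Forskolin replicate 3, and 3 without any of the others except Forskolin replicate 2, and Lama4 reversed to 0.27 with its brightest probe set. Integrins rose in 5 of 20, with Itga3, a laminin receptor chain, at 10.88, 10.92 and 10.81 in Forskolin cells, against 9.48, 9.67 and 9.68 in Control cells (1.26), and Itgb6 higher by 0.61. Integrin rises numbered 8 with the mean of probe sets and 2 with the brightest. Matrix proteases split evenly, 4 up and 4 down of 29 (13.8% each way). Over all genes 6.07% rose and 8.92% fell, and over those above background 8.83% and 13.9%. The urokinase Plau rose by 1.52, and the membrane protease Mmp15 (-1.08) and the inhibitor Timp3 (-0.81) fell.

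In the Wnt list 12 of 39 fell and 3 rose, with the receptor Fzd4 at -1.12 and the receptor-degrading ligase Rnf43 at 0.76. Without Forskolin replicate 3 the falls numbered 8. In the TGF-beta and BMP list 10 of 46 fell and 5 rose. Bmp3 had 6.48, 6.88 and 6.27 in Forskolin cells, against 8.70, 8.95 and 8.72 in Control cells (-2.25), Bmp2 fell by 1.08 and the target Id1 by 0.95, while Id4 rose by 1.08, the latent binding protein Ltbp1 by 0.96 and Bmp4 by 0.82. Among receptor tyrosine kinases and their ligands 13 of 45 fell and 6 rose. Lrig1, which restrains ErbB receptors, had 6.47, 6.41 and 6.52 in Forskolin cells, against 8.47, 8.71 and 8.71 in Control cells (-2.17). The ephrin receptor Epha2 fell by 1.80 and neuregulin, Nrg1, by 1.57, while Fgfr4 rose by 1.37 and the insulin receptor relative Insrr by 1.33.

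Of 36 mitosis genes 23 fell and the other 13 did not pass, with a median of -0.39. The differences were small in size. Cdc20, an activator of the anaphase-promoting complex, had 11.09, 11.02 and 11.08 in Forskolin cells, against 11.91, 11.82 and 11.63 in Control cells (-0.72). Cdk1, the mitotic kinase, had 9.72, 9.59 and 9.68 in Forskolin cells, against 10.32, 10.16 and 10.38 in Control cells (-0.62), and Kif23 fell by the same amount. The falls numbered 16 without Forskolin replicate 2 and 14 with brightest probe sets. DNA replication genes had 7 falls (19.4%) and 2 rises (5.56%) among 36, with 27 not passing and a median of -0.14. All 36 lay above background, where 13.9% of genes fell and 8.83% rose. Of 23 regulators of G1, 8 rose and 3 fell. Ccnd1, cyclin D1, had 7.34, 7.35 and 7.44 in Forskolin cells, against 9.65, 9.55 and 9.19 in Control cells (-2.09, limma adjusted p = 1.17e-07). Myc and Mycn fell by 1.58 and 1.09, Myc to background and not in its brightest probe set (-0.04). The cell cycle inhibitors Cdkn1c (0.69) and Cdkn2c (0.56) rose, as did Gadd45a (0.49). The 8 rises became 4 without Control replicate 2 or Forskolin replicate 1, and 3 without Control replicate 3 or Forskolin replicate 2.

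Ribosome biogenesis had 14 falls among 23 measured, with a median of -0.40 and the other 9 not passing. Nop2, a ribosomal RNA methyltransferase, had 9.77, 9.82 and 9.81 in Forskolin cells, against 10.26, 10.52 and 10.42 in Control cells (-0.60), and Polr1a, the large subunit of RNA polymerase I, fell by 0.82. The falls numbered 9 without Control replicate 1 and 5 with brightest probe sets, and Nop2 and Polr1a were not called by that measure. Oxidative phosphorylation genes, by contrast, had 0 of 30 called in limma, against 5 lower at an unadjusted p under 0.05, with a median of -0.096. The de novo DNA methyltransferases were lower. Dnmt3b had 7.05, 6.88 and 6.98 in Forskolin cells, against 9.11, 9.09 and 9.37 in Control cells (-2.22), and Dnmt3a had 7.23, 7.22 and 7.05 in Forskolin cells, against 8.63, 8.28 and 8.62 in Control cells (-1.34). Uhrf1, which guides maintenance methylation, fell by 0.62, and the demethylating enzyme Tet2 rose by 0.65.

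Of the metabolic and stress lists in this paragraph, heat shock and oxidative stress had the largest share of falls. There 10 of 23 fell and 2 rose, with a median of -0.22, led by the glutathione peroxidase Gpx2 (-0.79) and Gclc, the rate-limiting enzyme of glutathione synthesis (-0.68). Amino acid genes had 5 rises among 20 (25%, against 6.07% of all genes and 8.83% of those above background). Slc7a5, the large neutral amino acid carrier, had 12.60, 12.75 and 12.64 in Forskolin cells, against 11.38, 11.28 and 11.28 in Control cells (1.35), and its partner Slc3a2 rose by 0.52. Without Control replicate 1, Control replicate 2 or Forskolin replicate 2 the rises of that list numbered 3. Glycolysis and hypoxia genes had 6 rises and 3 falls among 30, with Vegfa up by 0.57 and the glucose carrier Slc2a3 down (-0.43), but 2 rises and 2 falls with brightest probe sets. Lysosome genes had 3 rises (9.38%) and 6 falls (18.8%) among 32, against 8.83% and 13.9% of genes above background. The sorting receptor Sort1 was up by 1.14 and the transcription factor Tfeb down (-0.90). Tfeb had 0.058 by its brightest probe set, and the list then had 1 rise and 3 falls. Cholesterol synthesis had 1 rise and 1 fall among 17, fatty acid genes 3 and 4 among 32, and endoplasmic reticulum chaperones 2 and 2 among 25. Rises were 5.88%, 9.38% and 8% of these lists and falls 5.88%, 12.5% and 8%, near or under the shares of genes above background. With the mean of probe sets the chaperone falls numbered 6 and the fatty acid rises 6, and with brightest probe sets the fatty acid list had 1 rise and 1 fall.

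**Figure D4:**
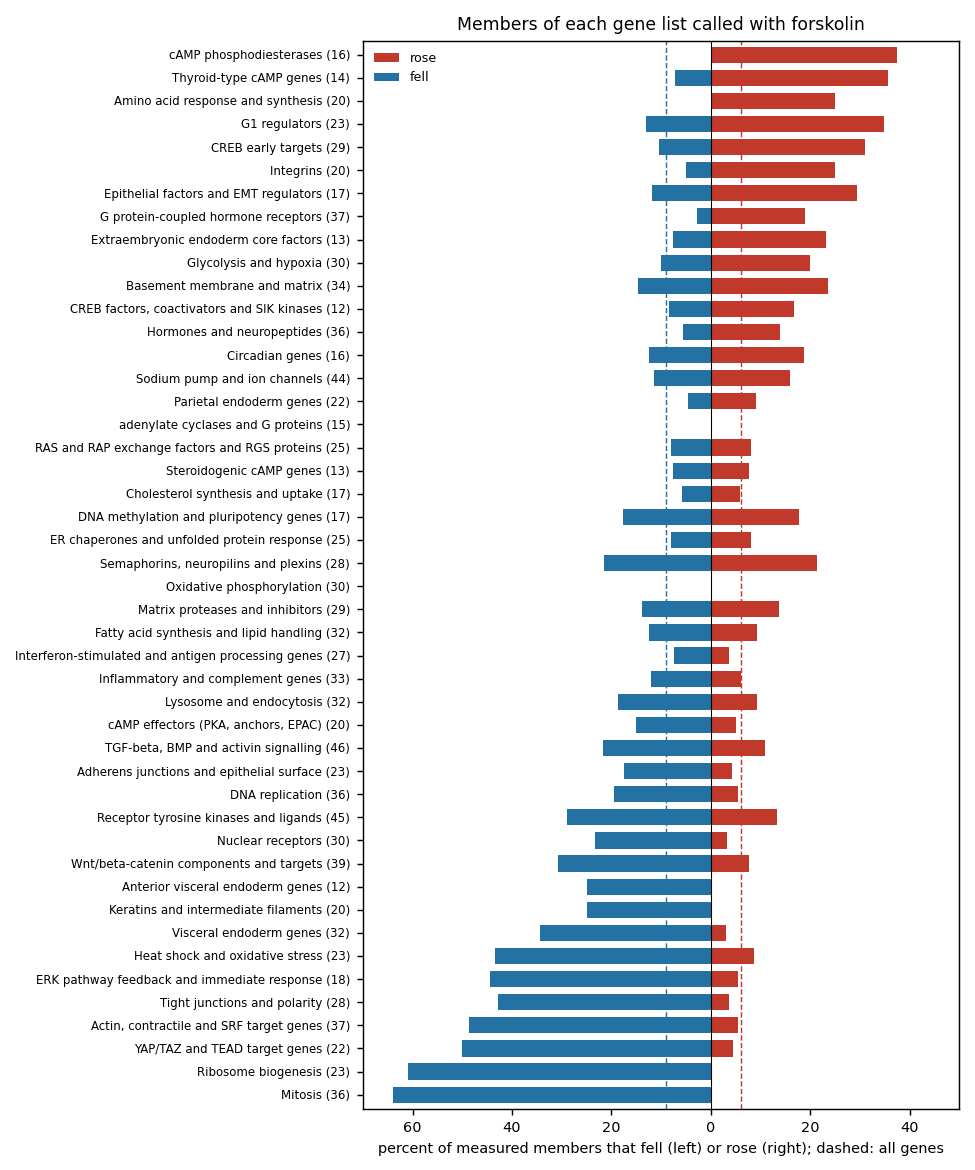
Share of the measured members of each pathway list shown that rose (right, red) or fell (left, blue) in Forskolin against Control cells, in percent, with the number measured in brackets. Dashed lines give the shares over all genes (6.07% higher and 8.92% lower). Over genes above background, not drawn, the shares were 8.83% higher and 13.9% lower. Phosphodiesterases and thyroid-type genes stand at the top, and mitosis, ribosome biogenesis, YAP/TAZ targets and actin genes at the bottom.

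The same forskolin treatment on top of CHIR gave changes that recurred in part. With CHIR, 2301 genes (13.8%) differed between CHIR_Forskolin and CHIR arrays, 1082 higher (6.51%) and 1219 lower (7.33%). Of the 1009 genes higher with forskolin alone, 458 were also called higher with CHIR (45.4% of them, and 42.3% of the 1082), and 40 were called lower. Of the 1483 lower genes, 489 were also called lower (33.0%, and 40.1% of the 1219), and 53 higher. The effect itself differed between the settings, by limma's interaction term, for 1050 genes (6.31%), 540 of them above 0 (3.25%) and 510 below (3.07%). The count of 1050 was 1870 with the mean of probe sets and 630 with the brightest. Among the 1050 were 180 of the 296 that changed by at least 1 log2 unit alone. Those 296 were chosen for a large effect without CHIR on arrays that the interaction also uses, which favours the 180.

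Several genes described first above were called with CHIR too, and the 6 given here were picked after their values were seen. Crem rose by 1.30, Sik1 by 1.87, Nr4a2 by 1.34, Nr4a3 by 2.19, Pde10a by 2.64 and Duoxa2 by 3.99, and the interaction passed for none of these 6. The phosphodiesterase list as a whole had 3 rises and 1 fall with CHIR, against 6 rises without it, and 3 of its 16 members were called in the interaction. Duoxa2 had 9.72, 9.94 and 9.95 in CHIR_Forskolin cells, against 5.99, 5.74 and 5.90 in CHIR cells. Cdh1 fell more with CHIR (-1.86, interaction -0.51, limma adjusted p = 0.0327), Hnf4a fell by a like amount (-1.75, interaction 0.28, limma adjusted p = 0.515), and Snai1 rose more (1.31, interaction 0.49, limma adjusted p = 0.0166). All ribosome biogenesis calls with CHIR were falls too, 9 of 23, with no member called in the interaction and a median of -0.20.

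With CHIR, 2 of 37 actin genes fell and 2 rose, and the interaction was called for 14. Tagln had 6.92, 6.93 and 6.94 in CHIR_Forskolin cells, against 6.84, 7.03 and 7.15 in CHIR cells, so the CHIR arrays already lay near the level that forskolin alone gave (interaction 2.19, limma adjusted p = 3.1e-07). Of 36 mitosis genes 2 fell and 2 rose with CHIR, with a median of 0.022, and the interaction was called for 11. Ccnd1 had 9.79, 9.72 and 9.44 in CHIR_Forskolin cells, against 10.02, 9.81 and 10.19 in CHIR cells (-0.35, not passed). Cited1 turned round, with 9.56, 9.24 and 9.32 in CHIR_Forskolin cells, against 10.87, 11.08 and 11.07 in CHIR cells (-1.64, interaction -4.27, limma adjusted p = 3.63e-08). Nr4a1 did so the other way, with 8.17, 8.35 and 8.52 in CHIR_Forskolin cells, against 7.44, 7.64 and 7.60 in CHIR cells (0.79, interaction 1.75).

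**Figure D5:**
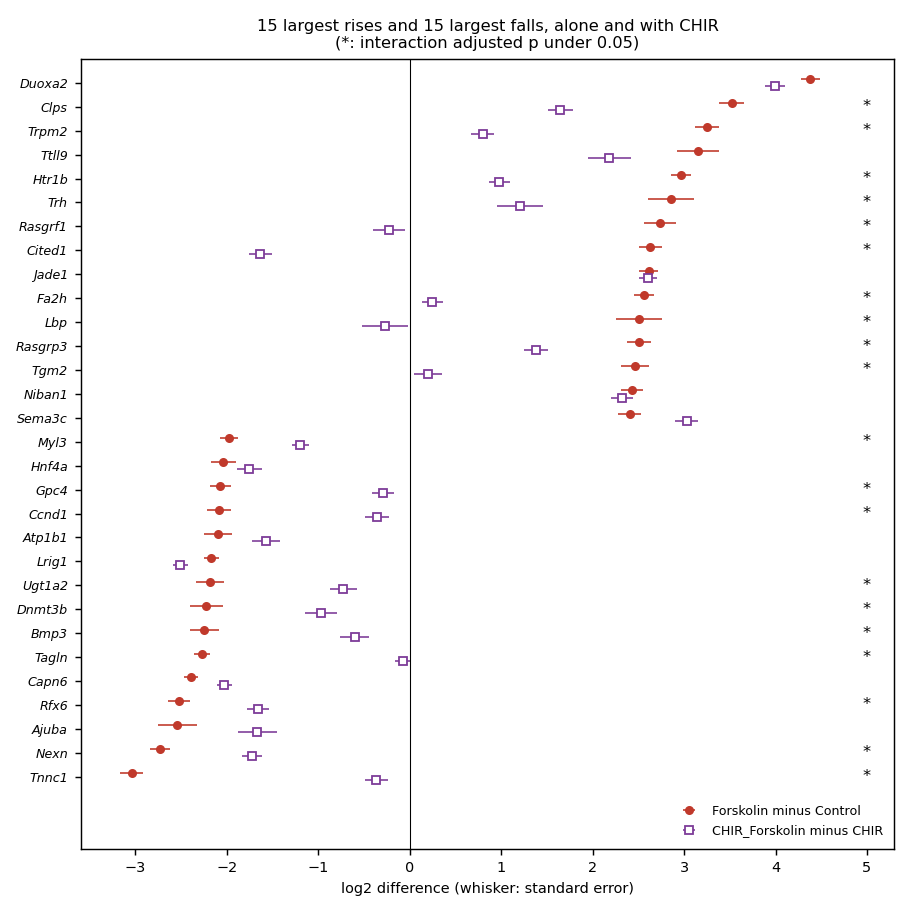
Log2 difference (horizontal, whisker: standard error) of the 15 largest rises and 15 largest falls, as Forskolin minus Control (filled circles) and as CHIR_Forskolin minus CHIR (open squares); an asterisk marks genes whose interaction passed. Duoxa2, Jade1 and Niban1 lie close to their values without CHIR, whereas Rasgrf1, Fa2h, Lbp, Tgm2, Tagln and Tnnc1 lie near 0 with CHIR and Cited1 lies at -1.64.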

How the data were processed

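RNA of 12 samples in 4 groups of 3 was hybridised to Affymetrix rat arrays, and the deposited values are log2 signals, 1 per probe set and array, made by the authors with RMA and Partek, per the submitters' processing notes. No tool version or genome build is stated there. Values from 3.75 to 15.0 set the log base. RMA corrects background, normalises arrays to one distribution and compresses differences near background. No depth applies to arrays, and 3 per group limit the precision.

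Of 211195 probe sets, 172924 carried 1 gene symbol in the platform annotation of 2010, 1661 carried several and were left out, and 36610 were unnamed here. Symbols were updated through the GRCr8 gene table (12878 current, 3659 updated, 96 kept). Probe sets of a gene (8 at the median, 1 for 1788 genes) were combined by their median, which can hide a change in part of a gene. Limma 3.58.1 in R 4.3.3 fitted 4 group means over 12 arrays, with empirical Bayes without trend, two-sided tests and Benjamini-Hochberg adjustment over all genes or all probe sets at 0.05. Differences are Forskolin minus Control, and the interaction is the effect with CHIR minus that without. The code was tested on simulated data.

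The 53 lists (1400 entries, 1291 measured, some in several lists) and the rules were chosen with earlier results of these data known, and the counts are descriptions. 1 list is not reported here. Genes named are the 15 largest rises and falls (groups apart, and the higher mean at least 7.48, the middle of the gene means), up to 4 called members of each list in each direction, and 37 fixed genes, of which 35 were measured. Examples kept their call in all 15 alternatives unless a lost call is stated beside them or in the closing section.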

Additional observations from a re-analysis of the deposited data

Results flagged for a closer look

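Of 62 genes assessed (the 15 largest rises, the 15 largest falls and the genes fixed by name), 29 had a forskolin effect that differed between cells with and without CHIR by limma's interaction term at an adjusted p under 0.05, against 6.31% of all genes. Of these 29, 24 had the smaller effect with CHIR. The genes among the largest rises (10 of the 29) and falls (10) were chosen for a large effect without CHIR on arrays that the interaction also uses, which favours both counts. Values below are the effect with CHIR minus the effect without, in log2 units, and no explanation was tested.

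Rises that were smaller or absent with CHIR had interactions of -1.87 for Clps, -2.45 for Trpm2, -1.99 for Htr1b, -1.65 for Trh, -2.96 for Rasgrf1, -2.31 for Fa2h, -2.78 for Lbp, -1.13 for Rasgrp3 and -2.27 for Tgm2. Cited1, higher without CHIR and lower with it, had -4.27. Falls that were smaller with CHIR had 2.67 for Tnnc1, 1.01 for Nexn, 0.86 for Rfx6, 2.19 for Tagln, 1.64 for Bmp3, 1.25 for Dnmt3b, 1.46 for Ugt1a2, 1.73 for Ccnd1, 1.78 for Gpc4 and 0.78 for Myl3. The YAP targets Ccn2 and Ccn1 had 1.87 and 1.45, Myc 1.82 and Nr4a1 1.75. Cdh1 (-0.51) and Snai1 (0.49) had larger effects with CHIR. Vim had 1.42, Adcy6 -0.60 and Gnas -0.60, and none of these 3 was called without CHIR.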

How the results depend on the processing

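The count of 2492 genes stayed between 1726 and 3630 under the alternatives that kept all arrays, 1726 with each gene's brightest probe set and 3630 with the mean of probe sets. Lower calls fell to 897 with the brightest probe set, against 1483. Leaving out 1 array gave 1789 to 2227 genes in all, 791 to 890 higher and 979 to 1337 lower, the lowest without Forskolin replicate 3 (979). Interaction calls numbered 1870 with the mean of probe sets and 630 with the brightest, against 1050, and 838 to 1007 with an array left out. Probe set calls numbered 8684 in the fit of the groups compared alone, against 13730, and 8715 to 10717 with an array left out (8934 without Control replicate 3, 8715 without Forskolin replicate 3). Calls with CHIR numbered 1653 to 2180 with an array left out. The share of higher calls was 40.5%, and 50.7% with centred arrays, 48.5% with quantile normalisation and 48.0% with the brightest probe set. With the replicate number as a block, 2401 genes were called (982 higher and 1419 lower), 2175 with CHIR, 978 for the interaction and 12160 probe sets. The numbers do not pair the samples: deviations of same-numbered Forskolin and Control arrays correlated at 0.006, -0.016 and -0.022, and 1 of 3 arrays correlated best with its own number.

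Of 238 named genes that were called, 147 kept direction and call in all 15 alternatives. Genes named in the text that lost the call with the brightest probe set, beside those said at the gene, were Actn1, Bhlhe41, Cdk1, Esrp2, Fzd4, Inhba, Nes, Nid2, Rnf43, Sema3f, Slc2a3 and Slc3a2. Lmnb2 lost its call in 6 of the 15 alternatives. The sign of the difference turned with the brightest probe set for Fbln2 (0.33), Heatr1 (0.20), Kcnq1 (0.22), Lama4 (0.27), Nfkbia (0.052), Pde2a (-0.13), Sema4a (0.0011) and Tfeb (0.058), and with the mean of probe sets for Adamts9 (-0.058). Uncalled genes turned too: Adcy7 (mean 0.077, brightest 0.0011, 0.021 without Control replicate 3, 0.032 without Forskolin replicate 1, -0.40 at the lowest with an array left out), Afp (mean 0.031), Lama1 (brightest -0.0053, -0.0013 to 0.084 with an array left out), Pde4b (-0.0054 to 0.37 with an array left out) and Ttr (brightest -0.030). So did Pth1r (quantile -0.0063, -0.0088 without Control replicate 2, -0.0080 without Forskolin replicate 3, at most 0.050), Pthlh (-0.055 without Control replicate 2, -0.048 without Control replicate 3, at most 0.15) and Sox17 (brightest 0.065, centred 0.033, 0.0092 without Control replicate 2, 0.0076 without Forskolin replicate 2, at the lowest -0.021). The cause of these changes was not tested. Signal near background limits what can be said of genes under a level of 6.42.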

Other observations

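Ion channels and transporters moved both ways, with 7 of 44 rising and 5 falling. Atp1b1, the beta subunit of the sodium pump, had 6.62, 7.07 and 6.97 in Forskolin cells, against 8.87, 9.07 and 9.03 in Control cells (-2.10). The calcium channel Cacna1g rose by 1.27 and the chloride channel Ano1 by 1.01, and the magnesium channel Trpm6 fell by 1.42. Semaphorins and plexins had 6 rises and 6 falls among 28, with Plxnc1 (1.44) and Sema3b (1.01) higher and Sema4g (-0.75) and Sema3f (-0.66) lower. Circadian genes had 3 rises and 2 falls among 16, with Ciart, a clock repressor, at 1.04 and Bhlhe41 at 0.75. Interferon-stimulated genes had 1 rise (B2m, 0.82) and 2 falls among 27, inflammatory and complement genes 2 and 4 among 33, and nuclear receptors 1 and 7 among 30. Rises were 3.70%, 6.06% and 3.33% of these lists, against 6.07% of all genes, and falls 7.41%, 12.1% and 23.3%, against 8.92%. Nuclear receptor falls numbered 4 without Forskolin replicate 3.

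Of 13 genes whose probe sets fell into runs with different changes, Axl had 10 probe sets with a median of 1.63, all called, and 4 with a median of 0.11, none called. Mtus1 had 6 with a median of -0.74, 2 of them called, and 9 with a median of -2.81, all called. Syt7, a calcium sensor of vesicle release, had 10 with a median of 0.43 and 5 with a median of 2.81. Map3k6 had 14 with a median of 1.10 and 10 with a median of -0.43. These genes were picked after their values were seen. Among the 36610 probe sets with no gene name, 749 were called higher and 654 lower.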
